A study of Mus musculus with 6 samples.

Results

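The 36 immune cell marker genes described here cover T cells, B cells, leukocytes in general, macrophages and neutrophils. They were taken from a list of gene names, drawn up with earlier results of these data known, and were followed in whole pancreas of mice lacking Rkip-1 and of wild-type mice. A gene was measured where a probe set of the array names that gene and no other, which held for 35 of the 36, through 54 probe sets out of 45037 tested. Lck, a kinase of the T cell receptor, was not analysed here. The genes fell into 10 T cell genes (9 of them measured), 6 B cell genes, 4 pan-leukocyte genes, 14 macrophage genes and 2 neutrophil genes.

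The KO group was Rkip-1 KO mice and the WT group was wild-type mice of the same colony. There were 3 mice in each, all on a C57BL/6 background and 8 weeks old, with 1 Affymetrix array per mouse. Each group is labelled as biological replicates, with neither a sex nor a batch given, and how the allele was disrupted is not stated in the labels. Rkip-1 is the product of Pebp1 and restrains signalling from Raf to ERK. The title of the series places the study in the proliferation of pancreatic beta cells, and immune cells are a minor part of such tissue.

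The healthy pancreas holds resident macrophages, in the islets and between the acini, and few lymphocytes or neutrophils. Macrophages depend on the receptor Csf1r, clear debris through lysosomal enzymes such as lysozyme and cathepsin S, and are the main makers of complement C1q. Lymphocytes are concentrated in lymph nodes and in the clusters that lie in the surrounding fat. Neutrophils enter from blood, carrying S100a8 and S100a9 in large amounts.

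The values are log2 RMA values, and all levels and differences below are on that scale unless a fold is named. Array medians lay between 2.97 and 3.02. Over all arrays the upper quartile was 4.54, and a gene is called bright below where its mean over the 6 arrays was above it. No detection call exists for these values, so levels near the medians may hold no signal of the gene. Pebp1 measured 6.03 ± 0.41 in KO and 9.88 ± 0.12 in WT (mean ± SD, n = 3 each), while Cpa1, Ctrb1 and Cel, digestive enzymes of acinar cells, ranged from 14.26 to 14.39. Xist, made in cells with 2 X chromosomes, measured 9.11 and 9.79 in KO replicates 2 and 3 and 9.09 in WT replicate 3, and at most 4.43 in the other arrays. Its part in the differences below was not tested beyond a fit with Xist as a covariate. In whole tissue, fewer cells of a type and less RNA per cell cannot be told apart.

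Of the 35 genes, 0 differed between KO and WT at an adjusted p under 0.05 by limma, where 0.132% of all 18193 genes passed. Of all 54 probe sets 0 passed as well, against 0.0977% of all probe sets, and the lowest adjusted p among them was 0.5. At an unadjusted p under 0.05 the number was 4 of 35 genes, against 10.1% of all genes, and 4 of 54 probe sets, against 8.68% of all probe sets. Cd3e and Cd2 were on the higher side and Adgre1 and Itgam on the lower side. The signs were mixed, with 18 genes higher and 17 lower in KO, and the median difference over the 35 was 0.00, as it was over all genes. Within the KO group, single mice stood apart. A group of bright macrophage genes was lowest in KO replicate 1, and the neutrophil pair was highest in KO replicate 2.

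**Figure D1:**
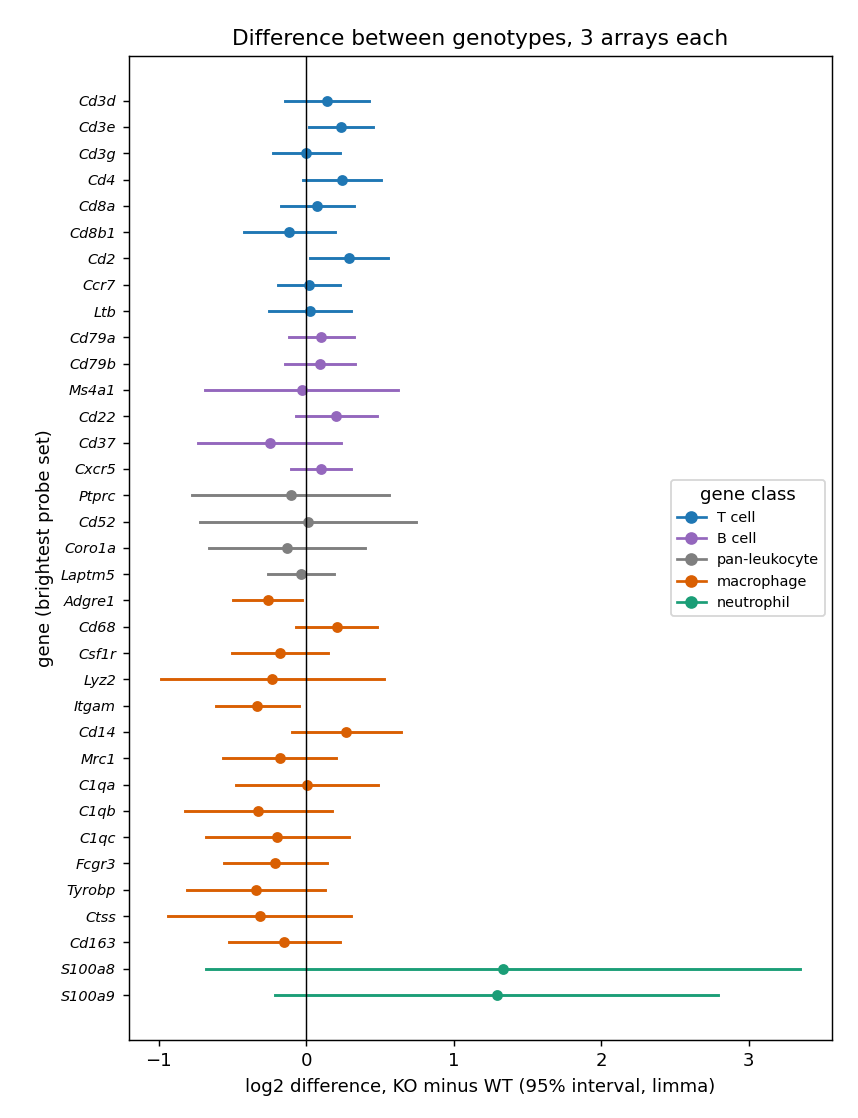
Log2 difference between KO and WT for the 35 measured genes, as points with 95% intervals from limma (3 arrays per group), coloured by cell class. The intervals of S100a8 and S100a9 are the widest, and 0 of the 35 genes passed at an adjusted p under 0.05.

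Of the 14 macrophage genes 8 were bright, against 1 of 4 pan-leukocyte genes and 0 of the T cell, B cell and neutrophil genes. In KO 11 of the 14 were lower and 3 higher, where 50.2% of all genes were lower. Of the 8 bright ones 7 were lower, against 61.7% of all bright genes. Over all 14 the median difference was -0.20, with a range from -0.34 for Tyrobp to 0.27 for Cd14, and 0 passed. Without KO replicate 1 the median difference was 0.01.

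Lyz2 encodes lysozyme, the bacterial wall enzyme of macrophages and neutrophils. It measured 6.57, 8.10 and 7.99 in KO replicates 1, 2 and 3, and 7.74, 7.99 and 7.63 in WT replicates 1, 2 and 3. KO replicate 1 was low, 2.08-fold below the lowest of the other 5 arrays, while the other KO mice lay at or above the WT mice. The difference was -0.23 (95% interval -0.99 to 0.53, adjusted p 0.897), and 0.26 without KO replicate 1.

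C1qa, C1qb and C1qc encode the chains of C1q, which starts the classical complement cascade. C1qb measured 5.90, 6.72 and 6.66 in KO, and 6.56, 7.11 and 6.58 in WT. C1qc measured 4.54, 5.37 and 5.37 in KO, and 5.24, 5.56 and 5.07 in WT. C1qa measured 5.97, 6.75 and 6.89 in KO, and 6.48, 6.74 and 6.38 in WT. All of these had their lowest value in KO replicate 1, and the groups overlapped. The differences were -0.33 for C1qb (95% interval -0.82 to 0.17, adjusted p 0.729), -0.20 for C1qc and 0.00 for C1qa. Without KO replicate 1 they were -0.06, 0.08 and 0.29. The further 2 probe sets of C1qb were also lowest in KO replicate 1, at 5.25 against 5.45 to 5.80 in the other arrays for one and 2.95 against 3.40 to 3.67 for the other.

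Ctss encodes cathepsin S, a lysosomal protease that trims the invariant chain of class II molecules. It measured 6.03, 6.98 and 7.17 in KO, and 6.73, 7.44 and 6.96 in WT, with a difference of -0.32 (95% interval -0.94 to 0.31, adjusted p 0.799). Tyrobp encodes DAP12, the signalling adaptor of several myeloid receptors. It measured 3.86, 4.74 and 4.59 in KO, and 4.54, 4.95 and 4.73 in WT, with a difference of -0.34 (-0.81 to 0.13, adjusted p 0.699). Without KO replicate 1 the differences were 0.03 for Ctss and -0.07 for Tyrobp. In each the lowest array was KO replicate 1 and the highest WT replicate 2, and the ranges of the groups overlapped.

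Csf1r, the receptor for the growth factors Csf1 and Il34, measured 6.84, 7.38 and 7.34 in KO, and 7.33, 7.51 and 7.25 in WT. Its difference was -0.18 (95% interval -0.51 to 0.15), and -0.01 without KO replicate 1. Its other 2 probe sets differed by 0.09 and -0.11, and the lowest array was WT replicate 1 for one and KO replicate 1 for the other. The ligand Csf1 measured 5.37, 5.45 and 5.34 in KO, and 5.01, 5.39 and 5.24 in WT (difference 0.17, adjusted p 0.71). The mannose receptor Mrc1 measured 4.31, 4.36 and 4.77 in KO, and 4.67, 4.97 and 4.34 in WT. For Mrc1 the KO replicate 1 value was close to that of WT replicate 3, so this array did not stand apart there.

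By its brightest probe set, KO replicate 1 was the lowest array for 8 of the 8 bright macrophage genes, where it was lowest for 22.1% of the 7141 bright genes of the array. Over all 14 macrophage genes it was lowest for 10, against 17.2% of all genes. WT replicate 2 was highest for 6 of the 8, against 21.6% of all bright genes. A stricter count, with a gap chosen after the values were seen, took genes in which KO replicate 1 lay more than 0.5 below every other array. This held for 7 of the 35 genes, namely Lyz2, Cd37, Ctss, Tyrobp, C1qb, Cd52 and C1qc. Of these, 5 were bright, out of 9 bright genes among the 35, against 72 of 7141 bright genes in all, or 1.01%. For genes of any level the share over the whole array was not counted. By the size of that gap, Lyz2 was number 10 among the bright genes of the array.

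**Figure D2:**
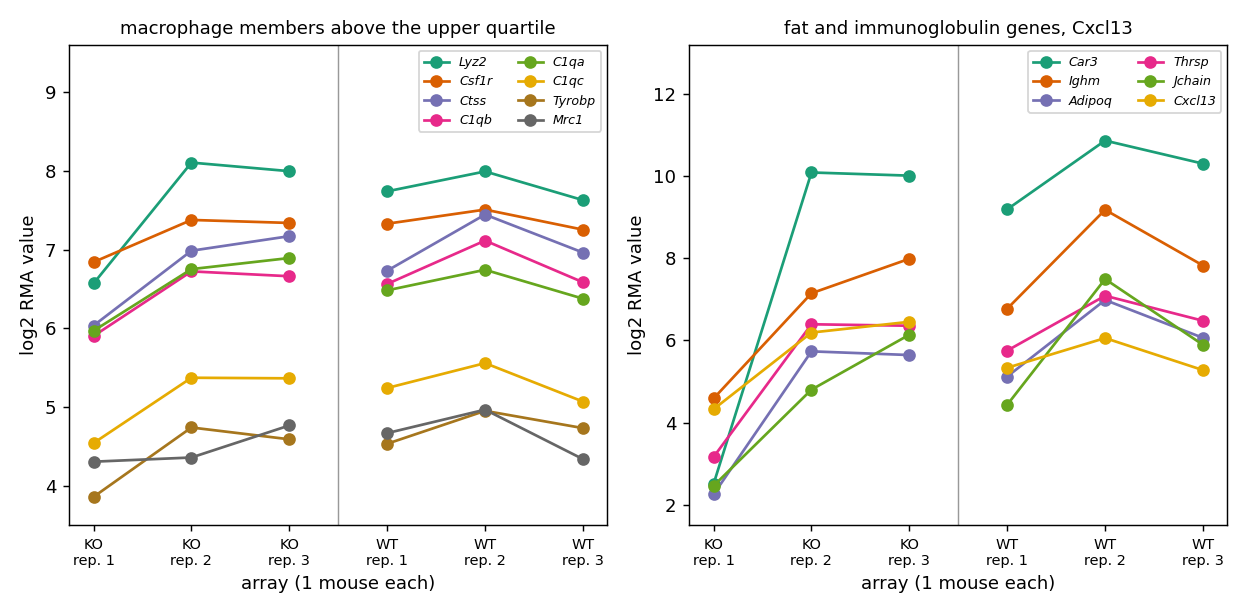
Log2 RMA values by array of the 8 bright macrophage genes (left) and of fat genes, immunoglobulin genes and Cxcl13 (right). Points are single mice, and lines join the values of a gene within a genotype. Every gene shown is lowest in KO replicate 1, by 1.06 for Lyz2 and by 6.68 for Car3 relative to the lowest of the other arrays. The genes on the right were picked for the figure after their values were seen. KO replicate 1 was lowest for 8 of 12 fat genes, a list made after values were seen, and for 1 of 7 plasma cell genes. It was highest for 3 of those 7.

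Genes of other cell types were low in KO replicate 1 too, and these were picked after their values were seen. The gap was widest for Car3, a carbonic anhydrase abundant in fat cells, at 2.51 in KO replicate 1 against 9.19 to 10.86 in the other arrays. Adipoq, the fat cell hormone adiponectin, measured 2.26 in KO replicate 1 against 5.12 to 6.99 in the others. Of 12 fat genes, a list made after values were seen, 8 were lowest there, against 17.2% of all genes. The summed linear level of these 12 genes ran from 631 to 2089 in KO and from 1458 to 3579 in WT, with the 631 in KO replicate 1. In a further list of 7 measured genes of other tissues, Adipoq among them, KO replicate 1 was lowest for 2. Of 6 matrix genes, Col3a1 and Dcn among them, 4 were lowest in KO replicate 1, against 22.1% of all bright genes. The matrix list was also made after values were seen, so neither count is a test. The summed linear level of the 6 ran from 2911 to 4118 in KO and from 4215 to 5511 in WT, without overlap. Single log2 values of the 6 ran from 5.28 to 11.66, and the brightest genes weigh most in this sum and in that of the fat genes. By gene, KO lay wholly below WT for 3 of the 6, against 7.56% of all genes and 903 of 7141 bright genes. The part of fat or connective tissue in the level of the macrophage genes was not tested.

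The remaining macrophage genes lay below the upper quartile on average. Adgre1, a surface receptor used to mark mouse macrophages, measured 3.91, 3.83 and 4.08 in KO, and 4.35, 4.13 and 4.12 in WT. It was the 1 macrophage gene whose groups did not overlap, and 7.56% of all genes had KO wholly below WT. The difference was -0.26 (95% interval -0.50 to -0.03, adjusted p 0.53). Itgam, the integrin CD11b, measured 2.12, 2.33 and 2.04 in KO, and 2.50, 2.29 and 2.70 in WT, all below the array medians. Cd14, a receptor for bacterial lipopolysaccharide, measured 3.93, 4.21 and 3.47 in KO, and 3.59, 3.53 and 3.68 in WT. Cd68, a lysosomal membrane protein, measured 3.42 ± 0.11 in KO and 3.21 ± 0.22 in WT. The IgG receptor Fcgr3 and the haemoglobin scavenger receptor Cd163 differed by -0.21 and -0.15, each lowest in KO replicate 1. Without that array the differences were -0.03 and 0.02.

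A second list of 19 measured macrophage genes gave 10 lower and 9 higher in KO, a median difference of 0.00 and 0 past the threshold. Maf, a transcription factor of resident macrophages, measured 4.77, 5.22 and 5.34 in KO, and 5.48, 5.73 and 5.36 in WT (difference -0.41, adjusted p 0.492). Its groups did not overlap. KO lay wholly below WT for 2 of the 19, against 7.56% of all genes, and wholly above for 1, against 6.87%. Marco, a scavenger receptor, differed by 0.22 (adjusted p 0.551) at levels under the array medians. KO replicate 1 was the lowest array for 9 of these 19, against 17.2% of all genes. Among the 9 was Folr2, a folate receptor of resident macrophages, picked like Lyve1 after its values were seen. It measured 4.90 there against 5.36 to 5.59 in the other arrays. Lyve1, shared by lymphatic vessels and macrophages, measured 4.52 in KO replicate 1 against 5.06 to 6.17.

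The promoters of 4 macrophage genes are shown, picked from those whose levels were low together in KO replicate 1. They are RefSeq sequences on GRCm38.p6, from 250 bases before to 50 bases after the gene start, printed in the direction of the gene, and a promoter was on hand for 22 of the 35 genes. Capitals mark GGAAGT on either strand (ACTTCC on the other), a core that ETS factors bind, and TATAAA on either strand. The ETS factor PU.1, product of Spi1, is needed to form macrophages and neutrophils.
Lyz2, chr10:117282223-117282522, minus strand: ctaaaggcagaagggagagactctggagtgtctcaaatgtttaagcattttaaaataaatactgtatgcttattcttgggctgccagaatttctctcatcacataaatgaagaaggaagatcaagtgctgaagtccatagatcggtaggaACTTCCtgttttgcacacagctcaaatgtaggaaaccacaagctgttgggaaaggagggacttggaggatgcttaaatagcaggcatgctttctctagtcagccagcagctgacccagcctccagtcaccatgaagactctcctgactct
C1qb, chr4:136886151-136886450, minus strand: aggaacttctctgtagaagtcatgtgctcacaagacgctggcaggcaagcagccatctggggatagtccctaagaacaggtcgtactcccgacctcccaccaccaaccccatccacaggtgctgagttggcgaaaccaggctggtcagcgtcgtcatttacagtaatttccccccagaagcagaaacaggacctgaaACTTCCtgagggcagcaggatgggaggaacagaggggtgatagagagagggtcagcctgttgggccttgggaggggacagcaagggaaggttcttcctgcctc
C1qc, chr4:136892865-136893164, minus strand: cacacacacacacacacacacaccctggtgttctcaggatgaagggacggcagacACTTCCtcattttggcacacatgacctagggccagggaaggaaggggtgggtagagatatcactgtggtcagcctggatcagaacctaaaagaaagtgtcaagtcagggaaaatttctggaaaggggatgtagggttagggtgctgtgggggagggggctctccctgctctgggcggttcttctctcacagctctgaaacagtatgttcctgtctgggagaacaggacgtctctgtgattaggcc
Ctss, chr3:95526536-95526835, plus strand: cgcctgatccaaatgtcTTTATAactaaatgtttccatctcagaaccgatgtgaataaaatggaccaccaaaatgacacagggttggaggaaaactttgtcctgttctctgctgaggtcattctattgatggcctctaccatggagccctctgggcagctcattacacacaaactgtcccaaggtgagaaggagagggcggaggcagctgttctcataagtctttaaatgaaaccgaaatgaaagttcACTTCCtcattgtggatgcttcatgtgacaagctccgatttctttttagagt
GGAAGT was found on either strand in 14 of the 22 promoters, or 63.6%, against 26.5% of all 27025 genes with a promoter. GAGGAA, which overlaps it within the string GAGGAAGT, was found in 72.7% against 31.3%. TATAAA was found in 22.7% against 15.7%. The longer AGAGGAAGT, which contains GAGGAA and GGAAGT, was found in 1 of the 22, against 1.18% of all genes. The match to GGAAGT began 100 bases before the gene start in Lyz2, 53 in C1qb, 195 in C1qc and 2 in Ctss. These matches describe letters and not binding. Genes low in KO replicate 1 were not compared with the other members for them. Spi1 itself measured 4.43, 4.43 and 4.51 in KO, and 4.33, 4.52 and 4.32 in WT, with overlapping groups.

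The neutrophil genes S100a8 and S100a9 encode the subunits of calprotectin, a calcium-binding and metal-withholding protein that fills the neutrophil cytosol and is also made by monocytes. S100a8 measured 2.82, 7.24 and 4.39 in KO replicates 1, 2 and 3, and 2.82, 4.43 and 3.19 in WT replicates 1, 2 and 3. S100a9 measured 2.51, 5.85 and 3.49 in KO, and 2.26, 3.15 and 2.56 in WT. KO replicate 2 was high in both, 6.97-fold and 5.12-fold above the next array. The other KO values fell within the WT range or, for S100a9 in KO replicate 3, just above it.

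The group difference was 1.33 for S100a8 (95% interval -0.68 to 3.35, adjusted p 0.726) and 1.29 for S100a9 (-0.21 to 2.79, adjusted p 0.633). Without KO replicate 2 the differences were 0.12 and 0.34. With Xist as a covariate they were 0.90 and 0.94. Without KO replicate 1 they were 2.33 and 2.01, with adjusted p of 0.505 and 0.443. The S100a8 probe set carries a name suffix for sets that can bind more than 1 transcript. In the whole array, 3 genes had KO replicate 2 more than 1 above every other array, or 0.0165% of 18193, a limit chosen after the values were seen. They were S100a8, S100a9 and Iigp1, an interferon-induced GTPase, at 5.58 in KO replicate 2 against 3.55 to 4.38 in the other arrays. Counted likewise, KO replicates 1 and 3 had 4 and 0 such genes, and WT replicates 1, 2 and 3 had 2, 3 and 1.

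**Figure D3:**
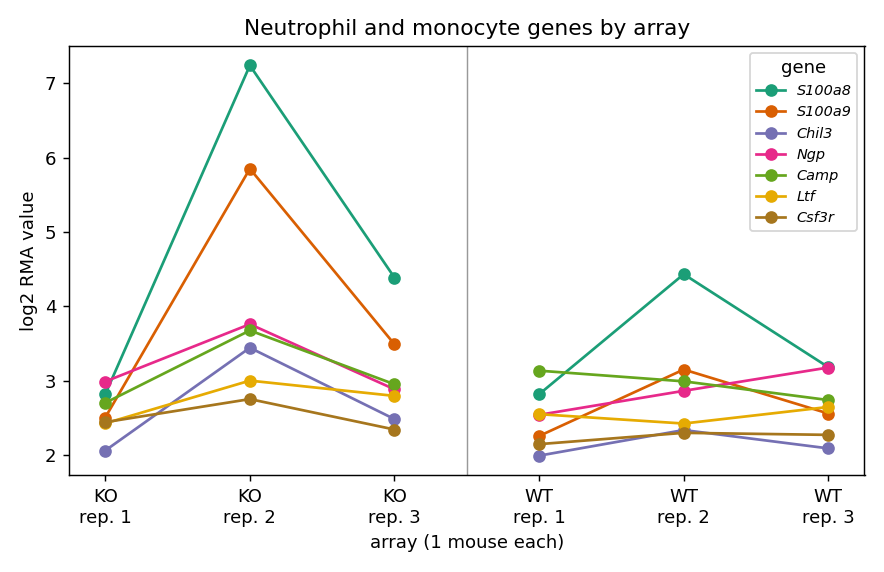
Log2 RMA values by array of S100a8, S100a9 and of 5 other neutrophil or monocyte genes, which were picked after their values were seen. Points are single mice, and lines join the values of a gene within a genotype. All are highest in KO replicate 2, at 7.24 for S100a8 and 5.85 for S100a9.

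Other granulocyte genes gave small differences. Of 12 further neutrophil genes measured, 9 were higher and 3 lower in KO, with a median of 0.13, 0 past the threshold and 0 bright. Mmp9, a matrix protease stored in granules, differed by 0.26 (adjusted p 0.504), and Csf3r, the receptor for granulocyte growth factor, by 0.27 (adjusted p 0.559). KO lay wholly above WT for 3 of the 12, namely these and Il1b, the inflammatory cytokine, against 6.87% of all genes. KO replicate 2 was highest for 5 of the 12, against 16.7% of all genes. The granule genes Ngp and Camp, picked after their values were seen, measured 3.76 and 3.68 in KO replicate 2, against 2.55 to 3.18 and 2.71 to 3.14 in the other arrays. Elane and Mpo, made by neutrophil precursors and also picked after their values were seen, stayed between 3.06 and 3.61 in all arrays. The summed linear level of the 12 genes ran from 101 to 118 in KO and from 93.9 to 99.3 in WT, highest in KO replicate 2. Single log2 values of the 12 ran from 1.96 to 4.53, so much of that sum may hold no signal of the genes. Chil3, of monocytes and activated macrophages, measured 3.45 in KO replicate 2 against 2.00 to 2.49 in the others. Vcan, a monocyte proteoglycan, differed by -0.22 (adjusted p 0.58).

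The promoters of the pair are shown as those of 2 genes that were high in the same mouse, marked as above.
S100a8, chr3:90668821-90669120, plus strand: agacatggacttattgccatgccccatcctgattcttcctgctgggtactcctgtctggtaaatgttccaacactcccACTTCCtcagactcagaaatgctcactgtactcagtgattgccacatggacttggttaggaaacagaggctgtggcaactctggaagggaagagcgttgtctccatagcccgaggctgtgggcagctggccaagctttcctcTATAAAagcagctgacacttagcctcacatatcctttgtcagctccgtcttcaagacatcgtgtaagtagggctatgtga
S100a9, chr3:90695672-90695971, minus strand: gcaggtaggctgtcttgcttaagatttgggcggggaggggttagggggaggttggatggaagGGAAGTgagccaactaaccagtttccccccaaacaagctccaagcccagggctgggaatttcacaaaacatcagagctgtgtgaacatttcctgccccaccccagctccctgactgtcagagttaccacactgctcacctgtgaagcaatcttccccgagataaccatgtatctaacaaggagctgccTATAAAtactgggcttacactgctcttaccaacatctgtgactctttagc
In each, TATAAA stands on the strand of the gene. It begins 30 bases before the annotated start of S100a8 and at the annotated start itself in S100a9. GGAAGT begins 172 bases before the start of S100a8, on the other strand, and 188 before that of S100a9.

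The pan-leukocyte genes varied more among mice than between genotypes. Ptprc, the phosphatase CD45 of all leukocytes, measured 2.61, 3.20 and 3.72 in KO, and 2.82, 3.85 and 3.18 in WT. Cd52, a small surface protein of lymphocytes and monocytes, measured 2.88, 4.23 and 4.18 in KO, and 3.43, 4.14 and 3.68 in WT. KO replicate 1 was lowest in both genes and WT replicate 1 second lowest. Coro1a, an actin regulator of leukocytes, measured 3.60, 3.47 and 4.44 in KO, and 3.65, 4.06 and 4.19 in WT. Another Coro1a probe set measured 2.75 in KO replicate 1 against 3.30 to 3.38 in the other arrays. The dimmest one varied by 0.16 and was lowest in WT replicate 1. Laptm5, a lysosomal membrane protein of blood cells, varied by 0.28 over the 6 arrays at its brightest probe set. The next brightest of its 4 other probe sets measured 3.77 in KO replicate 1 against 4.14 to 4.80 in the other arrays. Of the remaining 3, KO replicate 1 was the highest array for 2 and the lowest for 1. The differences of the 4 genes ran from -0.13 to 0.01, and 0 passed. Without KO replicate 1 their median difference was 0.08, against -0.07 with it.

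T cell genes were low in every array. Of the 9 genes 0 were bright, and single values ran from 2.18 to 4.62. The CD3 chains, which carry the signal of the T cell receptor, lay near the array medians. Cd3e measured 3.25, 3.10 and 3.17 in KO, and 3.06, 2.82 and 2.93 in WT. It was the 1 gene of the 35 with KO wholly above WT, where 6.87% of all genes were. Its difference was 0.24 (95% interval 0.02 to 0.46, adjusted p 0.536). Cd3d differed by 0.14 and Cd3g by 0.00, and their groups overlapped. Cd2, an adhesion receptor of T and NK cells, measured 3.35, 3.71 and 3.54 in KO, and 3.31, 3.08 and 3.35 in WT (difference 0.29, adjusted p 0.536).

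Cd4, which macrophages can also carry at low level, measured 4.62, 4.48 and 4.41 in KO, and 4.18, 4.11 and 4.49 in WT, with a difference of 0.24 at one probe set and 0.03 at the other. Cd8a and Cd8b1, the chains of CD8, differed by 0.08 and -0.12, and the 5 probe sets of Cd8a by 0.01 to 0.31. Ccr7, the homing receptor of naive T cells and mature dendritic cells, lay between 2.18 and 2.38, and Ltb, the cytokine lymphotoxin beta, between 3.67 and 4.09. Over the class 8 genes were higher and 1 lower in KO, where 50.2% of all genes were lower, with a median difference of 0.08. KO replicate 1 was the lowest array for 1 of the 9 genes, against 17.2% of all genes. WT replicate 2 was lowest for 5 of the 9, against 3331 of all 18193 genes. Without WT replicate 2 the median difference was 0.05.

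A second T cell list of 16 measured genes gave 10 higher and 6 lower, with 0 past the threshold. WT replicate 2 was the lowest array for 9 of these 16. Cd28, the costimulatory receptor, differed by 0.23 (adjusted p 0.497) at levels of 2.18 to 2.54. Zap70, a kinase of the receptor complex, differed by 0.24 at its brightest probe set (adjusted p 0.515). That set measured 7.55, 7.67 and 7.59 in KO, and 7.49, 7.34 and 7.24 in WT, while the 2 other Zap70 sets lay between 2.40 and 3.57. It was the 1 bright gene of this list. Of 11 genes of NK and cytotoxic cells 0 were bright and 0 passed. Klrd1, an NK receptor, differed by -0.18, and Gzmb, a cytotoxic protease, by 0.23.

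Of the 6 B cell genes 0 were bright, and 0 passed. Cd79a and Cd79b, the signalling chains of the B cell receptor, differed by 0.10 and 0.09, with all values between 2.71 and 3.16. Ms4a1, the CD20 antigen, measured 2.74, 3.89 and 3.79 in KO, and 3.09, 3.87 and 3.55 in WT. Its lowest values were those of KO replicate 1 and WT replicate 1. Cd37, a tetraspanin of B cells and other leukocytes, measured 2.28, 3.33 and 2.98 in KO, and 3.17, 3.06 and 3.10 in WT. Its second probe set differed by 0.20, where the brightest differed by -0.25. That second set measured 2.69 in KO replicate 1 against 2.38 to 2.88 in the other arrays. Cd22, an inhibitory coreceptor, differed by 0.20 at its brightest probe set and 0.21 at its other one. Cxcr5, the receptor for the follicle chemokine Cxcl13, lay between 2.16 and 2.40.

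Ighm and Jchain, products of antibody-secreting cells, varied widely between mice, and Jchain and Cxcl13 were picked after their values were seen. Ighm, the IgM heavy chain, measured 4.59, 7.15 and 7.99 in KO, and 6.77, 9.18 and 7.82 in WT at its brightest probe set. Jchain, which joins IgM and IgA into multimers, measured 2.46, 4.80 and 6.14 in KO, and 4.43, 7.49 and 5.89 in WT. Both were lowest in KO replicate 1 and highest in WT replicate 2. Their differences of -1.35 and -1.47 had adjusted p of 0.69 and 0.702. A second Ighm probe set measured 3.26 in KO replicate 1 against 5.60 to 8.32 in the other arrays, and the 9 others lay between 2.17 and 5.12. Cxcl13 measured 4.33, 6.19 and 6.45 in KO, and 5.34, 6.06 and 5.28 in WT, again lowest in KO replicate 1.

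**Figure D4:**
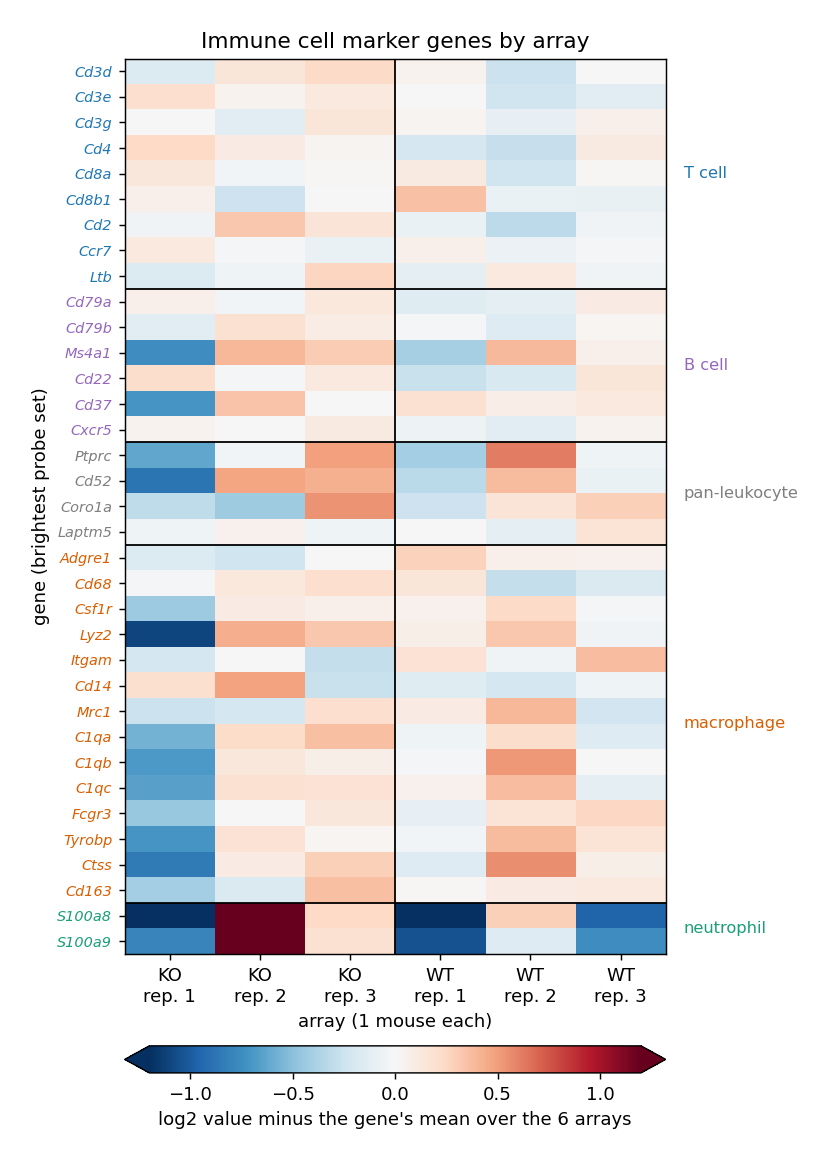
Log2 value of each of the 35 genes minus its own mean over the 6 arrays, by array, with genes grouped by cell class and the colour scale cut at 1.2. KO replicate 1 is low across the bright macrophage genes, and KO replicate 2 is high in S100a8 and S100a9. The median range over the 6 arrays was 0.44 for T cell genes, against 0.76 for macrophage genes and 0.37 for all genes.

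The remaining immune lists held 0 genes past the threshold. Among the 15 measured genes of the second B cell list, 9 were lower and 6 higher in KO, and Blnk, an adaptor of the B cell receptor, differed by -0.19. Of 7 plasma cell genes, Jchain among them, 5 were higher and 2 lower in KO, and KO replicate 1 was lowest for 1 and highest for 3. Sdc1 differed by 0.32 (adjusted p 0.553) and Prdm1 by 0.17. Sdc1 is also made by epithelial cells. Of 9 dendritic cell genes, 0 were bright. Zbtb46, a factor of classical dendritic cells, differed by -0.19, and the chemokine Ccl22 by 0.17. Of 11 mast cell and eosinophil genes, Fcer1a and Tpsb2 differed by 0.12 and 0.10. Of the lymphoid stroma genes, Tnfsf11 and Tnfsf13b differed by -0.13 and 0.06. Of 12 ligands and growth factors, Cxcl1, which draws neutrophils, differed by -0.27 and Tnf by 0.18. Of blood genes, the platelet chemokine Pf4 differed by -0.19, lowest in KO replicate 1 at 5.97, and Alas2 of red cells by 0.04.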

How the data were processed

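RNA of whole pancreas was measured on 6 arrays. Each deposited log2 value stands for 1 probe set on 1 array. The submitters' processing notes name RMA and affy for the step from scans to values by the authors, with no version or setting stated. RMA makes arrays alike in distribution, which hides a shift common to most genes. Of 45101 probe sets, 64 controls were left out. Platform annotation names 1 gene for 34958 probe sets, several for 932 and none for 9211. Symbols were updated by Entrez identifier through RefSeq for 34754. The brightest single-gene probe set stands for a gene (18193 genes).

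KO minus WT was tested in R 4.3.3 with limma 3.58.1 (linear fit, moderated variance), two-sided, without covariates, with Benjamini-Hochberg adjustment over the 45037 probe sets. The fit was tested on simulated data. The number of arrays limits the precision. Members and lists were chosen with earlier results of these data known. All members were named, with the 2 genes of smallest p of each other immune list. Pebp1, Xist and acinar enzymes served as checks. Any other gene named, Csf1, Spi1, Il1b and Chil3 included, was chosen after its values were seen. Alternatives are given in the closing section. Figures were drawn with matplotlib 3.10.9.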

Additional observations from a re-analysis of the deposited data

How the results depend on the processing

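Over 15 alternatives, 0 of the genes each could test passed, and the lowest adjusted p of any was 0.312. Scaling was varied by repeating the quantile step or by setting the array medians equal. Dim probe sets, or those that may bind several transcripts, were left out, or a gene's probe sets were averaged. The model was varied with array weights, a robust trend in the variance, a replicate block or Xist, and each array was left out. At an adjusted p under 0.1 the number of member probe sets past the threshold was also 0. Of 513 values, 41 differed in sign from the main value, in 16 genes, and 19 genes never changed sign. The median difference of the T cell genes was 0.24 over the 5 that remained when dim probe sets were left out, against 0.08. With single arrays left out, the class medians ran from -0.33 to 0.01 for macrophage, 0.23 to 2.17 for neutrophil, -0.29 to 0.08 for pan-leukocyte, 0.05 to 0.15 for T cell and 0.07 to 0.14 for B cell genes.

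The count over all probe sets was 44. It was 76 at an adjusted p under 0.1, 22 with the Xist covariate and 25 without sets that may bind several transcripts, where fewer sets were tested. With an array left out it was 16 to 41, and dropped to 24 when KO replicate 1 was the array left out, 18 for KO replicate 2, 26 for WT replicate 1 and 16 for WT replicate 2. Why these counts moved was not tested. The replicate block gave 33, with 0 member probe sets. Deviations of same-numbered arrays correlated at 0.19, -0.03 and -0.08, so the numbers were not taken as pairs. Most T cell and B cell genes lay near the array medians, which limits what can be seen there.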
